A study of Rattus norvegicus with 13 samples.

Results

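A set of 10 genes for immunoglobulin superfamily adhesion molecules of axons was examined: *Nptn*, *L1cam*, *Nrcam*, *Nfasc*, *Chl1*, *Ncam1*, *Cntn1*, *Cntn2*, *Alcam* and *Thy1*. They were taken as every probe set, a group of short probes on the array that reads the same transcript, whose single annotated symbol is one of these names. This gave 19 probe sets for 10 genes, out of 31042 probe sets that are not controls and 14217 named genes. The set was chosen by gene family with the ratios of neurons to uninjured axons known, and *Nptn* for the size of its excess there, so all neuron values are given as a description and without a test.

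The samples were rat cortical cultures, kept for 13 days in microfluidic devices whose compartments let axons grow into a chamber of their own. There were 3 arrays of neurons taken from the neuronal compartment, 3 of regenerating axons that were cut on day 11 and regrew for 2 days, and 7 of uninjured axons. No strain, sex, age or genetic change is stated for any group, all were kept in the same medium, and each array held material pooled from 3 platforms whose polyadenylated RNA was amplified in 2 rounds. Nothing in the labels ties each array to a culture of its own, so p-values measure only the spread between these samples, which may be technical.

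The deposited value is a linear ratio for each probe set. The 6 measured uninjured arrays are each divided by the median of their own set of 3, array 7 reads exactly 1 throughout and holds no measurement, and the ratios of neurons and regenerating axons were taken to be over the uninjured axon level, which the labels do not state. A ratio above 1 therefore stands for more signal than in uninjured axons, and says nothing of how much transcript axons hold. Ratios of different probe sets are differences from axons and not levels, so they do not rank the genes by abundance. Fewer cells or axons and less RNA in each cannot be told apart in such samples.

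The neuronal compartment also held glial signal. Median log2 values over the marker probe sets in the 3 neuron arrays were 2.43 to 3.56 for neuronal genes, 3.67 to 3.86 for astrocyte genes, 1.61 to 2.19 for the oligodendrocyte lineage -1.26 to -0.88 for microglia and -0.80 to -0.55 for fibroblast and vascular genes. Control transcripts added to every hybridisation in a fixed amount read a median of 0.285, 0.931 and 0.156 times the denominator in neuron arrays 1, 2 and 3, and 1.17 to 1.55 times in the regenerating arrays. Their part in the results was not tested.

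Adhesion molecules of this superfamily carry immunoglobulin domains outside the cell and bind partners on other cells or on the same membrane. The L1 family (*L1cam*, *Nrcam*, *Nfasc*, *Chl1*) spans the membrane and binds ankyrin, which ties it to the spectrin skeleton at the axon initial segment and nodes of Ranvier. The contactins *Cntn1* and *Cntn2* and the small protein Thy-1 are held by a lipid anchor, NCAM exists in both forms and carries polysialic acid, and neuroplastin associates with the calcium pumps of the plasma membrane. These molecules guide, bundle and stabilise axons.

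Promoter sequences are shown for the genes at the ends of the neuron range among those with a single probe set, *Nptn* with the largest excess in neurons and *Cntn2*, read below 1 there. They come from RefSeq on the GRCr8 assembly and span 250 bases before to 50 after the annotated start, 5′ to 3′. Capitals mark the GC box GGGCGG, the CCAAT box CCAAT, the E-box CANNTG and their reverse complements. TATAAA and TGACGTCA were also searched on both strands and have no match in either window, and no matches overlap.
Nptn promoter, chr8:67892460-67892759, plus strand: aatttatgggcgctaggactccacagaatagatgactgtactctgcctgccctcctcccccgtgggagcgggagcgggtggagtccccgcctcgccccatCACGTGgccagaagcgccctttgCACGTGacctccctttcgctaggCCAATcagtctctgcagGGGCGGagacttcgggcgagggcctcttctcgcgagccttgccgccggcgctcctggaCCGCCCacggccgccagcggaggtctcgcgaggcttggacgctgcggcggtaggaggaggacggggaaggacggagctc
Cntn2 promoter, chr13:46527976-46528275, minus strand: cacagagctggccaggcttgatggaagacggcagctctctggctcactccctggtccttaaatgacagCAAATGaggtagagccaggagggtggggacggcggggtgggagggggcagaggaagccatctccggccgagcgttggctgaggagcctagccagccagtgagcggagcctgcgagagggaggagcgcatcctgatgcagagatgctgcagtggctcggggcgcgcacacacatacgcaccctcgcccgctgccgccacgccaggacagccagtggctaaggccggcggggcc

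The *Nptn* window holds 2 GC boxes, 1 CCAAT box and 2 E-boxes, and the *Cntn2* window 1 E-box. Of 33469 promoters in the table, 33.1% hold a GC box, 37.5% a CCAAT box and 72.1% an E-box, so each of these matches is common. The guanine and cytosine content is 67.7% for *Nptn* and 67.0% for *Cntn2*, beside a median of 51.7% over all promoters, and the ratio of observed to expected CpG is 0.845 and 0.576, beside a median of 0.392. The table matched 6 of the 10 genes, with 2 starts for *Nfasc*. A GC box occurs in 1 of the 7 windows and an E-box in 4. A match is a description of the letters and does not show binding.

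In neurons, most of these genes read well above uninjured axons, but the size of the excess ran from over 100-fold in *Nptn* to none in *Cntn2*. Of the 19 probe sets, 12 were at least 2-fold higher in neurons and 1 was at least 2-fold lower, beside 26.3% and 15.2% of all probe sets. Their median log2 value was 2.16, beside -0.07 over all probe sets. The 3 neuron arrays lay above all 6 uninjured arrays in 12 probe sets and below them in 1, beside 33.1% and 36.8% of all probe sets. The members were chosen with this contrast known, so nothing is read from these shares. At least 1 probe set was 2-fold higher in 9 of the 10 genes, all but *Cntn2*. This rule favours genes with several probe sets, and its share over all genes was not counted. By the mean over each gene's probe sets, 6 of the 10 genes were at least 2-fold higher. For this count, too, no share over all genes was taken, so nothing is read from it.

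*Nptn*, which encodes neuroplastin, read 165, 130 and 162 in the 3 neuron arrays, against 0.602 to 2.41 with a median of 1 in uninjured axons. All neuron arrays were far above every axon array, with a mean of 151-fold (log2 7.24 ± 0.19, SD, n = 3). Whether it tops the table depends on how probe sets are combined. By the mean over each gene's probe sets *Nptn* ranked 1, and by single probe sets it ranked 3, behind *Apoe* and an unnamed probe set. The probe sets next below it, of *Slc6a17* and *Actg1*, read 150.6-fold and 150.0-fold beside its 151.4-fold, a near tie. *Nptn* has a single probe set, so its gene mean is that reading. *Apoe*, a lipid carrier made mainly by astrocytes, read 204-fold in 1 of its 2 probe sets and 1.07-fold in the other, which puts its gene mean at rank 352. In the separate neuron arrays the *Nptn* probe set ranked 4, 5 and 6.

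The genes whose 12 measured arrays ran closest to *Nptn* were found by the root mean square difference of log2 values. *Slc6a17*, a synaptic vesicle amino acid transporter gene, was nearest at 0.50, with ratios of 152, 93.5 and 240 in neurons. *Hsp90ab1* (a cytosolic chaperone), *Rtn4* (which encodes the myelin and neuronal protein Nogo), *Sparcl1* (a matrix protein made mainly by astrocytes) and *Apoe* followed at 0.54, 0.57, 0.58 and 0.63. Their mean neuron ratios were 85.5, 90.1, 94.0 and 204. Any probe set with an excess near that of *Nptn* scores close on this measure, since the neuron arrays outweigh the rest.

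In the L1 family, *Nrcam*, the ankyrin-binding molecule of initial segments and nodes, had the largest values. Its probe set 1392734_at read 17.9, 12.2 and 27.8 in neurons, against 0.873 to 1.06 with a median of 1 in uninjured axons. Probe set 1371036_at read 11.4, 11.4 and 16.0 in neurons, and 1377001_at read 4.02, 5.43 and 4.25, against uninjured maxima of 1.28 and 1.64. All 3 stood clear of the axon arrays, and the highest mean was 4.02 times the lowest.

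*L1cam*, the founding member and a promoter of neurite growth, read 7.14, 7.99 and 7.93 in neurons, against 0.881 to 1.29 with a median of 1 in uninjured axons. Its neuron arrays were close together, at log2 2.94 ± 0.09 (SD, n = 3). *Chl1*, the close homologue of L1, read 5.67, 5.19 and 6.54 in neurons, against 0.526 to 1.30 with a median of 1 in uninjured axons. Both genes were above every axon array, in probe sets that are the only ones of their genes.

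*Nfasc* encodes neurofascin, which has neuronal and glial isoforms, and its 5 probe sets split. Probe set 1393181_at read 6.24, 4.20 and 6.20 in neurons and 1374164_at read 4.55, 4.15 and 4.74, against uninjured maxima of 1.07 and 1.17. Probe sets 1388041_s_at and 1380917_at overlapped the axon arrays, at 0.994, 1.06 and 0.937 and at 1.02, 0.825 and 0.764 in neurons. The remaining probe set, 1370877_at, was below all axon arrays, at 0.512, 0.508 and 0.378 in neurons against 0.933 to 1.05 in uninjured axons. The highest neuron mean of the gene was 11.8 times the lowest, so a single value for *Nfasc* hides readings above and below 1. The low reading could not be told apart from background, as set out below. By the naming of the array, a probe set ending in _s_at can read transcripts of more than 1 gene.

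*Ncam1*, the neural cell adhesion molecule, showed a similar split over 3 probe sets. Probe set 1368320_at, built on a RefSeq transcript, read 10.4, 9.42 and 9.35 in neurons, against 0.791 to 1.24 with a median of 1 in uninjured axons. Probe set 1379389_at read 1.18, 0.805 and 1.26 in neurons and 1377368_at read 0.712, 0.584 and 0.579, and both overlapped the uninjured arrays. The highest mean was 15.6 times the lowest, the widest such range among the 4 genes with several probe sets. Both low probe sets were built on expressed sequence tags, single-pass reads of cloned transcripts. Of the 10 adhesion probe sets built on such tags, 7 were at least 2-fold higher in neurons. The same held for 5 of 7 built on RefSeq transcripts and 0 of 2 built on other GenBank transcripts, beside 26.3% of all probe sets. Which part of a transcript any probe set reads was not examined.

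The contactins parted. *Cntn1*, the partner of neurofascin and of the contactin-associated proteins at the axon surface, read 3.06, 1.78 and 4.65 in neurons, against 0.732 to 1.03 with a median of 1 in uninjured axons. Its neuron arrays were all above the axon arrays but spread widely among themselves (log2 1.56 ± 0.69, SD, n = 3). *Cntn2*, also known as TAG-1, an adhesion molecule of growing axons and of the region beside the nodes, read 0.751, 0.813 and 0.750 in neurons, against 0.702 to 1.30 with a median of 1 in uninjured axons. Those groups overlapped.

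*Alcam*, an adhesion molecule of growing axons that is also made by other cell types, read 7.31, 7.68 and 6.16 in neurons, against 0.689 to 1.71 with a median of 1 in uninjured axons. *Thy1*, an abundant surface protein of mature neurons, had smaller ratios. Its probe set 1369652_at read 2.35, 1.30 and 3.19 in neurons, against 0.842 to 1.60 with a median of 1 in uninjured axons, and the groups overlapped in neuron array 2. Probe set 1369651_at read 1.37, 1.22 and 2.35 in neurons, just above the uninjured maximum of 1.05. Without neuron array 3, the mean of 1369652_at came under 2-fold and that of the low *Nfasc* probe set came to less than 2-fold below, and the counts became 11 and 0.

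**Figure D1:**
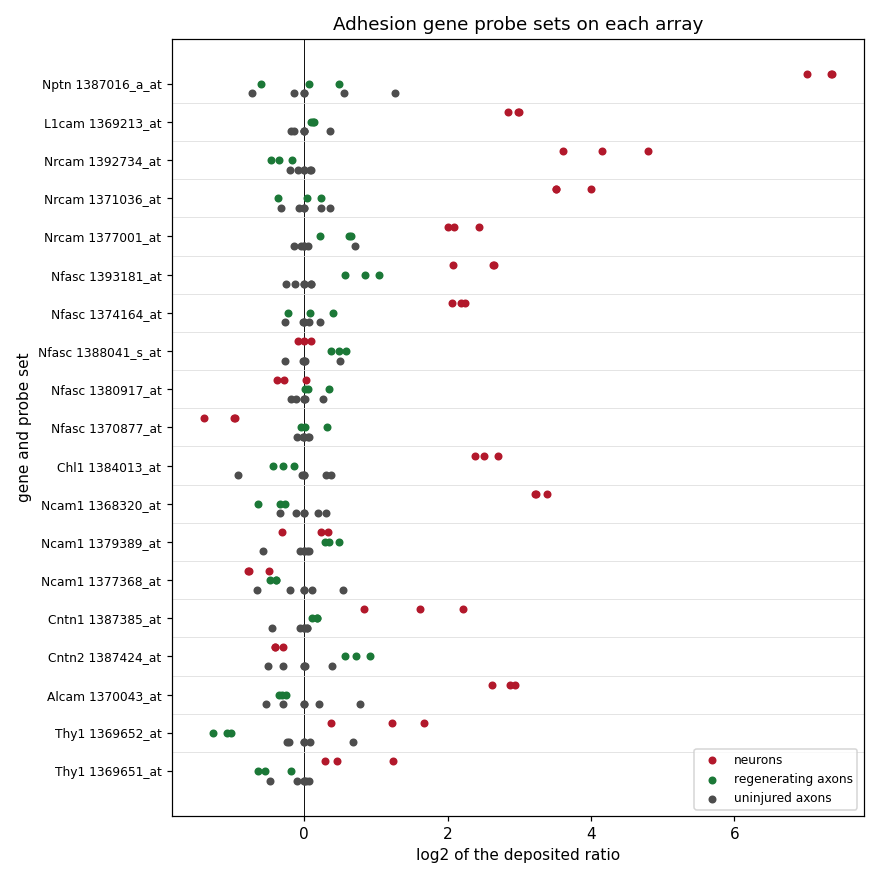
Log2 of the deposited ratio (horizontal) for each of the 19 probe sets (rows), with 1 point per array: 3 neuron arrays above, 3 regenerating arrays in the middle and 6 measured uninjured arrays below in each row, and 0 marking the denominator. The *Nptn* neuron arrays stand near log2 7.24, the probe sets of *Nfasc* and *Ncam1* lie on both sides of 0 in neurons, and most regenerating points lie among the uninjured ones.

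Ordered by neuron mean, 13 of the 18 neighbouring pairs of probe sets had neuron arrays that overlapped. Arrays did not overlap between *Nptn* and *Nrcam* 1392734_at (log2 3.05), between *Nrcam* 1371036_at and *Ncam1* 1368320_at (0.39), or between that and *L1cam* (0.34). Nor did they between *Cntn2* and *Ncam1* 1377368_at (0.31), or between that and *Nfasc* 1370877_at (0.43). The denominator of each probe set has an error that all 3 neuron arrays share and that such overlap does not measure. Whether these gaps exceed it was not tested. From *L1cam* through *Alcam*, *Chl1* and the upper *Nfasc* probe sets each neighbouring pair overlapped, while pairs farther apart in the order could be separate, as every *L1cam* array lay above every *Chl1* array. Neuron array 2, whose hybridisation controls were the closest to 1, was the lowest of the 3 in 10 of 19 probe sets, beside 43.7% of all probe sets.

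Readings below 1 in neurons are common among genes that these cells may not use. In 28 probe sets for smell, taste and pheromone receptors, a class taken to be silent here, which was not tested, the neuron mean had a median of 0.499 and ran from 0.328 to 1.15. The 6 lowest probe sets of the adhesion genes, among them *Cntn2* and the low ones of *Nfasc* and *Ncam1*, lie within that range, and the other 13 lie above it. The members were chosen with the neuron values known, and the shares of all probe sets within and above that range were not counted. A ratio holds no signal level, so axonal transcript and background could not be told apart for these 6.

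Partners of these molecules were read from lists chosen with earlier results of these data known, and each value is of a single probe set, from which others of the same gene can differ. The counts stand beside 26.3% of all probe sets at least 2-fold higher in neurons and 15.2% at least 2-fold lower, with a median of log2 -0.07. Of 48 probe sets for ankyrins, spectrins and other intracellular partners, 26 were at least 2-fold higher in neurons and 4 lower (median log2 1.50). The highest probe sets were of the spectrin genes, with *Sptbn1* at 67.7, 78.7 and 76.0 and *Sptan1* at 64.2, 45.6 and 80.6. *Sptbn1* has 4 probe sets, and the 2 lowest read log2 -0.79 and -0.33 in neurons. The lowest were *Epb41*, a membrane skeleton protein gene, at 0.111, 0.0658 and 0.158, and *Dcx*, a microtubule protein gene whose product binds neurofascin, at 0.491, 0.412 and 0.404 in 1 of its 2 probe sets. The other *Dcx* probe set read log2 4.29 in neurons, and the other of *Epb41* read 0.57.

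Of 51 probe sets for other adhesion molecules of the superfamily, 25 were at least 2-fold higher in neurons and 3 lower (median 0.85). *Opcml*, a lipid-anchored molecule of neurons, led in both of its probe sets, at 19.6-fold and 14.7-fold. *Sdk1*, a synaptic adhesion molecule of the retina in mice, and the junctional molecule *Jam2* were lowest, at log2 -1.73 ± 0.35 in 1 of 3 probe sets and -1.40 ± 0.14 in 1 of 5 (SD, n = 3). The other *Jam2* probe sets ran from log2 -0.63 to 1.21, and the other *Sdk1* probe sets both read -0.91. Of 45 probe sets for extracellular and membrane partners, 19 were higher and 3 lower (median 0.71). The receptor phosphatase gene *Ptprz1*, whose product binds contactin-1 and is made largely by glia, read 58.8, 56.4 and 53.2 in 1 of its probe sets and 38.4, 34.7 and 31.1 in the other. The lowest were *Ptprs*, also a receptor phosphatase gene, at log2 -2.17 ± 0.40 and the growth factor gene *Nrg1* at -1.45 ± 0.19 (SD, n = 3), in 1 of their 4 and 8 probe sets. The other *Ptprs* probe sets read the opposite way, at log2 3.56, 4.25 and 4.37, and those of *Nrg1* ran from -1.23 to 0.45.

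Of 20 probe sets for partners of neuroplastin, 9 were at least 2-fold higher in neurons and 1 lower, with a median of log2 0.18. The receptor subunit gene *Gabra5* read 10.7, 14.3 and 12.0, and the calcium pump gene *Atp2b1* read 12.8, 10.2 and 12.8 in the highest of its 3 probe sets. At the low end were *Traf6*, a signalling adaptor gene, at log2 -1.67 ± 0.27 in 1 of 4 probe sets and the lactate transporter gene *Slc16a3* at -0.69 ± 0.20 (SD, n = 3). Of 24 probe sets for polysialic acid synthesis, lipid anchoring and surface proteases, 4 were higher and 3 lower (median -0.30). *Dpm1* and *Pigt*, which act in making and attaching the lipid anchor, were the highest, at 3.73-fold and 2.35-fold, and the proteases *Bace2* and *Mmp9* were the lowest, at log2 -1.17 ± 0.63 and -1.17 ± 0.20 (SD, n = 3). The other *Dpm1* probe sets ran from log2 -0.59 to -0.03, and the other *Pigt* probe set read 1.02.

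**Figure D2:**
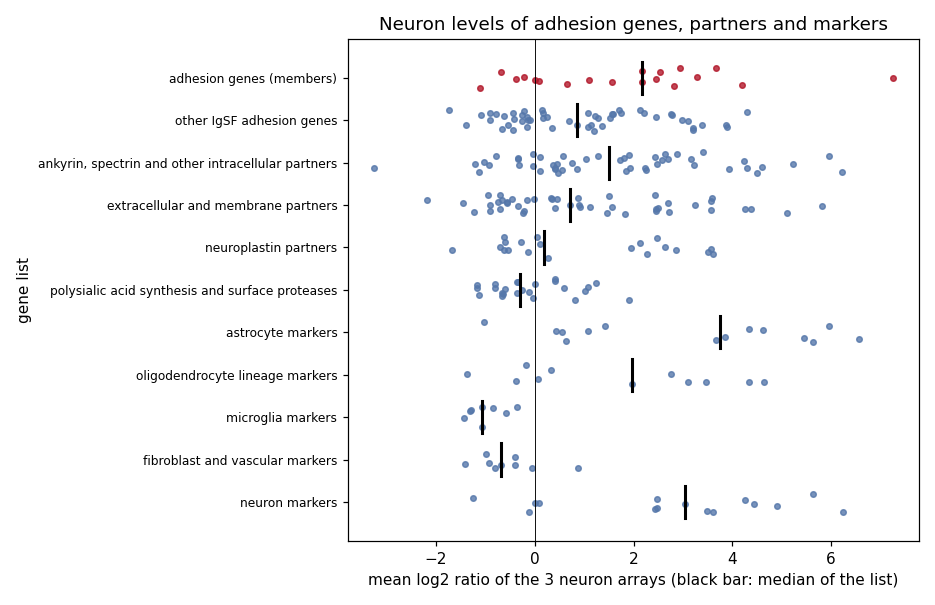
Mean log2 ratio of the 3 neuron arrays (horizontal) for each probe set of the adhesion genes, of the partner lists and of the cell type markers (rows), with a black bar at the median of each list. The adhesion genes have a median of 2.16, the 5 partner lists -0.30 to 1.50, and the neuronal and astrocyte markers 3.04 and 3.76. Medians are 1.96 for oligodendrocyte lineage, -1.07 for microglia and -0.69 for fibroblast and vascular markers. Members and lists were chosen with earlier results of these data known, so nothing is read from this order.

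In regenerating axons, none of the adhesion genes passed the test against uninjured axons. Each probe set was tested with limma on log2 ratios, with the denominator given the error of 1 array and Benjamini-Hochberg adjustment over all 31042 probe sets. At an adjusted p under 0.05, 0 of 19 probe sets were called, beside 0.345% of all probe sets (104 or 0.335% lower and 3 or 0.00966% higher). At an unadjusted p under 0.05 there were 3 of 19, beside 10.9% of all. The log2 differences ran from -1.13 to 0.82 with a median of 0.08, beside 0.03 over all probe sets, and 10 were above and 9 below 0. Leaving out each array in turn gave 0 called members every time, while the count over all probe sets ranged from 0 to 479.

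*Thy1* had the lowest values. Its probe set 1369652_at read 0.491, 0.472 and 0.415 in regenerating axons, against 0.842 to 1.60 with a median of 1 in uninjured axons. All regenerating arrays were below every uninjured array, a mean 2.18-fold below the denominator, and the difference did not pass the test (log2 -1.13 ± 0.31, SE, limma adjusted p = 0.164). Of the 19 probe sets, 1 (this one) was at least 2-fold lower, beside 4.21% of all probe sets, and none was 2-fold higher, beside 0.238%.

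The second *Thy1* probe set, 1369651_at, read 0.884, 0.686 and 0.639 in regenerating axons, against 0.719 to 1.05 with a median of 1 in uninjured axons, and overlapped them (log2 -0.46 ± 0.25, SE, limma adjusted p = 0.583). The median log2 value over the 15 probe sets of neuron markers was -0.38, -0.51 and -0.87 in the 3 regenerating arrays, with 10 of them below 0 and 5 above it. None was called, and 7 had an unadjusted p under 0.05 in limma, beside 10.9% of all probe sets. Whether this bears on *Thy1*, itself a neuronal gene, was not tested.

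*Nfasc* 1393181_at had the highest values, at 1.48, 2.05 and 1.80 in regenerating axons, against 0.841 to 1.07 with a median of 1 in uninjured axons. The groups did not overlap, and the difference did not pass (log2 0.82 ± 0.22, SE, limma adjusted p = 0.167). The other 4 *Nfasc* probe sets had log2 differences of 0.08 to 0.48, and all of them overlapped the uninjured arrays. All 5 means were above 0, but 1374164_at came to -0.072 without regenerating array 1 and 1370877_at to -0.016 without regenerating array 3.

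*Cntn2* read 1.65, 1.88 and 1.48 in regenerating axons, against 0.702 to 1.30 with a median of 1 in uninjured axons. Every regenerating array was above the uninjured arrays and also above the 3 neuron arrays, and the difference from uninjured axons did not pass (log2 0.73 ± 0.31, SE, limma adjusted p = 0.405). *Cntn1* read 1.07, 1.13 and 1.13 in regenerating axons, against 0.732 to 1.03 in uninjured axons, without overlap (log2 0.15 ± 0.21, SE, limma adjusted p = 0.894). *Ncam1* 1379389_at read 1.40, 1.27 and 1.22, above an uninjured maximum of 1.04 (log2 0.37 ± 0.24, SE, limma adjusted p = 0.669). The smell, taste and pheromone receptor class had a median ratio of 1.19, a maximum of 1.77 and a minimum of 0.898 in regenerating axons. None of the adhesion probe sets lay above that range, 12 lay within it and 7 below it. The shares of all probe sets within and below that range were not counted.

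In all, the regenerating arrays lay above all 6 uninjured arrays in 4 probe sets and below them in 1, beside 10.3% and 10.9% of all probe sets. Such separation does not measure the error of the denominator that the regenerating arrays share. Each uninjured set was divided by its own median, so differences between the sets are also missing from the uninjured range. The same limits hold where neuron arrays are set against uninjured ones. The other 2 probe sets of *Ncam1*, the one for *Alcam* and the one for *Chl1* had log2 differences between -0.42 and -0.30. *Nrcam* differed by probe set, at -0.33, -0.03 and 0.50, and *L1cam* read 1.10, 1.09 and 1.07 in regenerating axons (log2 0.12 ± 0.22, SE). *Nptn* read 1.39, 0.659 and 1.05 in regenerating axons, on both sides of 1, and with a standard error of 0.64 its log2 difference of -0.02 was the least precise of the 19. Over the 5 partner lists, 0 of 188 probe sets passed in limma, beside 0.345% of all probe sets. At an unadjusted p under 0.05 in limma there were 15 of 188, beside 10.9% of all. List medians were between log2 -0.11 and 0.09.

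**Figure D3:**
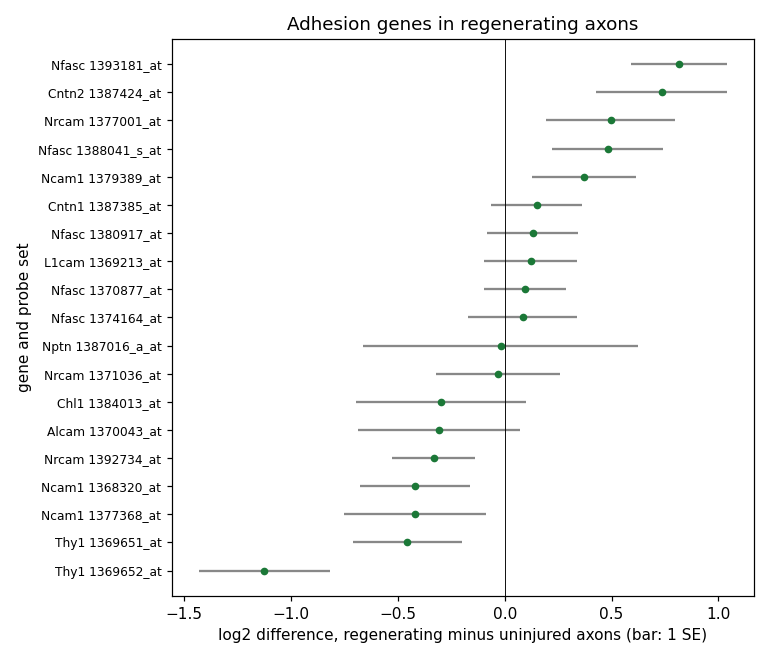
Log2 difference of regenerating minus uninjured axons (horizontal) for the 19 probe sets (rows, in order of the difference), with bars of 1 standard error that include the error given to the denominator. *Thy1* 1369652_at is lowest at -1.13 and *Nfasc* 1393181_at highest at 0.82, and neither passed the test.

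The standard error was 0.190 to 0.644 over the adhesion probe sets and rests mainly on the error given to the denominator. With that error left out, 8 of the 19 passed in limma: both of *Thy1* and the probe sets 1368320_at of *Ncam1* and 1392734_at of *Nrcam* as lower, and *Cntn2*, *Nrcam* 1377001_at and *Nfasc* 1393181_at and 1388041_s_at as higher. Under that setting 3707 of all 31042 probe sets were called lower and 3539 higher, so calls were common over the whole table.

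Set directly against neurons, regenerating axons were at least 2-fold lower in 13 of the 19 probe sets and higher in 2, beside 27.5% and 19.2% of all probe sets. These values hold the neuron readings that chose the genes and are a description. The median difference, regenerating minus neurons, was log2 -1.68, and the 2 higher probe sets were *Nfasc* 1370877_at (1.21) and *Cntn2* (1.11). *Cntn2* was the only gene with no probe set lower in regenerating axons than in neurons by the array means.

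Among the uninjured arrays themselves, the highest reading of an adhesion probe set was a median of 1.56 times the lowest, beside 1.45 over all probe sets. *Nptn* varied most, by 4.01-fold between arrays 4 and 5 (2.41 and 0.602), a wider range than in 97.7% of all probe sets. *Alcam* and *Chl1* followed at 2.48-fold and 2.46-fold, and *Nfasc* 1370877_at varied least at 1.12-fold. Differences between the sets of 3 arrays, and so between culture batches if the sets follow them, were removed by the division and do not enter these ranges.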

How the data were processed

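The deposited table holds linear ratios for 31099 probe sets, which the authors made; RMA is named in the submitters' processing notes, with no version given in the sources used here. In every row the median ratio of uninjured arrays 1 to 3, and of 4 to 6, is 1 within 0.0001. Columns were matched to samples by title. Symbols came from the array's annotation; 20826 probe sets had 1 symbol, 436 several and 9780 none, and 20758 of the first had a gene identifier in RefSeq's GRCr8 table.

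Log2 ratios were fitted per probe set with limma 3.58.1 (R 4.3.3; lmFit, eBayes): the 3 regenerating arrays against array 7, which stood for a denominator with the error of 1 array, with the spread pooled from the regenerating arrays and both uninjured sets. The script was tested on simulated ratios whose denominator had the error of 1 array. That is what the fit assumes, so the simulation cannot check this assumption. The design allowed for ratios as a possible unit of the deposited values, and no filter on low values could be set on ratios. All members were named, with the 2 highest and 2 lowest probe sets of each partner list by neuron mean. Members and lists were chosen with earlier results of these data known. Same-numbered arrays correlated at r = -0.31 to 0.13 across probe sets, so numbers were not taken to pair samples. The number of arrays limits the precision.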

Additional observations from a re-analysis of the deposited data

Results flagged for a closer look

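Among the 6 measured uninjured arrays, a gap test (Dixon's, at the 95% level) marked an array that stands apart in 8 of the 19 probe sets, beside 18.9% of all probe sets. Chance marks about 1 in 20 groups of independent values, but in every row at least 2 of these arrays read exactly 1 by construction, so that rate does not hold here. The high arrays were array 1 for *L1cam* (1.29), array 2 for *Nrcam* 1377001_at (1.64), array 3 for *Nfasc* 1388041_s_at (1.41) and array 5 for *Thy1* 1369652_at (1.60). The low arrays were array 1 for *Chl1* (0.526), array 6 for *Ncam1* 1379389_at (0.668), array 5 for *Cntn1* (0.732) and array 4 for *Thy1* 1369651_at (0.719).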

How the results depend on the processing

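No adhesion probe set passed against uninjured axons when array medians were subtracted, neuron arrays joined the spread or shrinkage was robust. None passed when the lowest values were missing, genes were averaged or any 1 array was left out. With the denominator's error left out 8 passed, and of all 31042 probe sets 3707 were called lower and 3539 higher. A fit with the replicate number as a block called 1, *Thy1* 1369652_at (log2 -1.07, limma adjusted p = 0.0397), with 600 lower and 68 higher overall; the numbers are not shown to pair the samples. Gene means, fitted over 14217 named genes and not over probe sets, gave 98 genes lower and 5 higher. Over all probe sets, neuron arrays in the spread gave 48 lower, and leaving out an array gave 0 (regenerating array 3) to 462 (regenerating array 1) lower and 0 to 17 higher. Leaving out regenerating array 2 gave 6 in all, and leaving out uninjured arrays 1, 2, 4, 5 and 6 gave 305, 16, 199, 35 and 17; the cause was not tested. The median log2 difference of the adhesion genes was 0.013 by gene means, and -0.016 to 0.12 with a regenerating array left out. Sign changed with 1 regenerating array left out for *Nrcam* 1371036_at (-0.17 to 0.14), *Nfasc* 1374164_at (-0.072 to 0.24), *Nptn* (-0.27 to 0.27) and *Nfasc* 1370877_at (-0.016 to 0.16), none of them called. In neurons the median of 2.16 became 1.96 with the replicate block, 2.04 by gene means, 2.67 by the highest probe set of each gene and 2.05 to 2.15 with a neuron array left out. The count at least 2-fold higher was 6 of 10 by gene means and 11 to 12 with an array left out. The count 2-fold lower was 0 by gene means or highest probe sets and 0 to 1 with an array left out. No share over all genes was taken beside the counts by gene. Regenerating minus neurons had a median of -1.82 to -1.65 with an array left out. Ratios carry no signal over background, which limits every low reading.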
